A study of Mus musculus with 30 samples.

Results

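Fragments of 2 abundant non-coding RNAs, 7SK and 7SL, were examined in small RNA libraries from mouse cortex. Their genes are 3 of the 6113 small RNA genes of the GENCODE vM21 annotation, namely Rn7sk for 7SK and Rn7s1 and Rn7s2 for 7SL. A sequence was a member when its whole length matched 1 of these transcripts exactly in the sense direction. Rn7s1 and Rn7s2 differ at 0 of their 300 bases, so a 7SL fragment belonged to both genes and was counted once. This gave 12998 distinct sequences, 6810 from 7SK and 6188 from 7SL, and no sequence matched both RNAs. Antisense matches amounted to 3 reads for 7SK and 81 for 7SL in PANDORA-seq, and to 0 and 17 in traditional-seq.

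Prefrontal cortex (labelled cortex) came from WT mice and from hemizygous 5xFAD littermates, called AD here, at the age of 6 months on a congenic C57BL/6J background. The 5xFAD transgenes are driven by the neuronal Thy1 promoter, and the line models amyloid pathology without the full tau pathology of the human disease. PANDORA-seq, in which gel-selected short RNA was treated with T4PNK and AlkB before adapter ligation, covered 8 WT and 8 AD libraries. The labels list T4PNK first, and the authors' methods name AlkB first. Traditional-seq, without these enzymes, covered 7 WT and 7 AD libraries of the same tissue and age. Codes in the names of the deposited files are shared by 14 PANDORA-seq and 14 traditional-seq libraries of the same genotype, and the labels do not say whether these are the same mice. T4PNK repairs RNA termini that adapters cannot join, and AlkB removes methyl groups that stop reverse transcription. Both sexes were used, and sex is not among the labels used here. The labels give numbered replicates of each group, and p-values measure the spread between them.

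7SK is a nuclear RNA transcribed by RNA polymerase III. Bound by the capping enzyme Mepce, the La-related protein Larp7 and Hexim proteins, it holds the transcription elongation factor P-TEFb (Cdk9 with cyclin T) in an inactive state. 7SL, also made by RNA polymerase III, is the scaffold of the cytoplasmic signal recognition particle, which brings ribosomes making secreted and membrane proteins to the endoplasmic reticulum, and its terminal Alu domain pauses translation. Both RNAs are folded and long-lived, and short reads from them are fragments of the full-length molecules.

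The 7SK RNA is shown so that its fragments can be placed. All sequences are those of GENCODE vM21 on the mouse build GRCm38, 5′ to 3′ in DNA letters. Capitals mark positions where the mean PANDORA-seq coverage reached at least 50% of its peak. Rn7sk lies on the minus strand at chr9:78175303-78175633 as a single exon of 331 bases, of which the first 300 are printed. Rn7s1 lies on the plus strand at chr12:69159295-69159594 and Rn7s2 on the minus strand at chr12:69361182-69361481, each a single exon. All 3 are annotated as misc_RNA.
7SK: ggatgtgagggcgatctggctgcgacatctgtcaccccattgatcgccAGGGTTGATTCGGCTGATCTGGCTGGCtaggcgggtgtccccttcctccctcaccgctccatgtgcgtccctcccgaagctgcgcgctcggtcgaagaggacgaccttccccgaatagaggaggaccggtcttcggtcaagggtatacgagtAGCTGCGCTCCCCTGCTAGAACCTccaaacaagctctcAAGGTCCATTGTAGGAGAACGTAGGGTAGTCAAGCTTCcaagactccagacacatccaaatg

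The fragments that the results turn on are printed next, each named by the position of its first base, counted from 1 at the 5′ end of the RNA, and by its length. Capitals mark the stretch from the most frequent first base in PANDORA-seq to the most frequent last base in traditional-seq, that is positions 240 to 260 of 7SK and 79 to 99 of 7SL. The first 3 of each RNA were the most abundant in PANDORA-seq and the next 3 the most abundant in traditional-seq. The last line of 7SK is the fragment that differed between genotypes with the smallest adjusted p.
7SK-240 (37 nt): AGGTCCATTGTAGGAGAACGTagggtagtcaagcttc
7SK-239 (38 nt): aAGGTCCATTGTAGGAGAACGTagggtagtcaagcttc
7SK-39 (37 nt): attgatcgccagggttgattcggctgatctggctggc
7SK-63 (18 nt): tgatctggctggctaggc
7SK-212 (26 nt): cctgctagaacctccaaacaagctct
7SK-64 (18 nt): gatctggctggctaggcg
7SK-238 (45 nt): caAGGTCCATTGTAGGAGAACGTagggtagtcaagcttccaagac

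For 7SL, the last line is the fragment called lower in AD with the smallest adjusted p.
7SL-79 (38 nt): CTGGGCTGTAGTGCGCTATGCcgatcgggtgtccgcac
7SL-79 (34 nt): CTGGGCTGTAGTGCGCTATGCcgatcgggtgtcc
7SL-79 (31 nt): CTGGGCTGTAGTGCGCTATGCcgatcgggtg
7SL-75 (25 nt): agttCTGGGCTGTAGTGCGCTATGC
7SL-80 (20 nt): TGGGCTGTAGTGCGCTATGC
7SL-77 (23 nt): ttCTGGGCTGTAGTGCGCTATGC
7SL-77 (45 nt): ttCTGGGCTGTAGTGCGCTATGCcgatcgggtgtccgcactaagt

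In the genome, the 7SK-240 (37 nt) fragment corresponds to chr9:78175358-78175394. The 7SL-79 (38 nt) fragment corresponds to chr12:69159373-69159410 in Rn7s1 and to chr12:69361366-69361403 in Rn7s2. All of these lie within the single exons of genes that encode no protein. The 7SL-79 fragments of 38, 34 and 31 nt share their first base and differ in where they stop, and the 7SL-75 (25 nt), 7SL-80 (20 nt) and 7SL-77 (23 nt) fragments share their last base and differ in where they begin.

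Libraries held 54926347 to 105876141 reads in PANDORA-seq and 9370669 to 17053412 in traditional-seq, with read lengths of 15 to 45 nt and 15 to 42 nt. Reads that matched the small RNA annotation exactly made up 6.40 to 15.9% of PANDORA-seq and 41.03 to 56.1% of traditional-seq libraries, so levels relative to all reads have different denominators in the protocols. All reads of 43 to 45 nt were 11.2 to 21.5% of WT and 2.13 to 10.7% of AD PANDORA-seq libraries, and the ranges did not overlap. The neuronal list of 7 hairpins holds copies of Mir124a, Mir9 and Mir128 that share reads, so single hairpins are given. In PANDORA-seq and traditional-seq libraries, Mir124a-1 was at 64.4 to 349 and 135 to 887 RPM (reads, scaled to 1000000 reads per library), Mir9-1 at 541 to 3940 and 20424 to 54740 RPM, and Mir128-1 at 960 to 3802 and 46661 to 227367 RPM. Of 2 microglial markers Mir142a was not matched by name, and Mir223 reached at most 0.555 RPM and 2.32 RPM in these protocols, and the oligodendrocyte list of 2 summed to 26.1 to 157.5 and 266 to 1486 RPM. Each of the muscle, liver and other tissue hairpins on a list of 6 was found in every library. The list summed to 55.4 to 348 RPM in PANDORA-seq and 377 to 8703 RPM in traditional-seq.

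7SK gave 2715879 reads in PANDORA-seq, 0.206% of all reads, and 46447 reads, 0.0275%, with traditional-seq. 7SL gave 2552846 reads, 0.194%, and 67575 reads, 0.0400%. The pooled shares of the RNAs were close in PANDORA-seq, while in single libraries the ratio of 7SK to 7SL reads ran from 0.523 to 3.21.

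**Figure D1:**
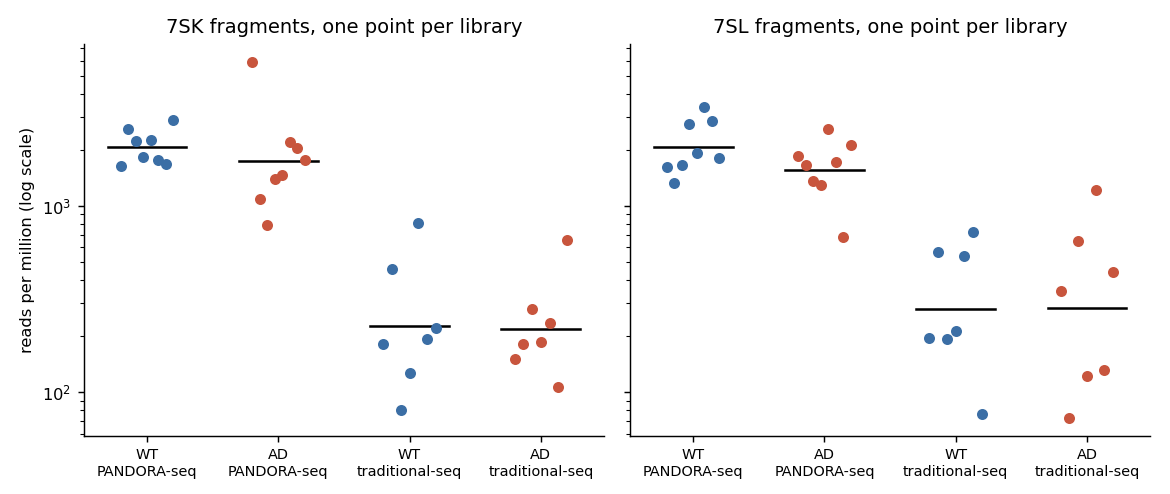
Level of 7SK (left) and 7SL (right) fragments in each library, in RPM on a log axis, for WT and AD in PANDORA-seq and traditional-seq. Points are libraries and bars geometric means. PANDORA-seq libraries lie between 792 and 5939 RPM for 7SK and between 685 and 3390 RPM for 7SL, and the WT and AD points overlap in every pair.

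The first comparison asked how far the enzyme treatments change what is seen of these RNAs. 7SK fragments were at 792 RPM (lowest), 1802 (median) and 5939 (highest) over 16 PANDORA-seq libraries and at 80.7, 189 and 814 RPM over 14 traditional-seq libraries. In 15 of 16 PANDORA-seq libraries the level was above that of every traditional-seq library. The difference was 3.09 on the log2 scale with a pseudocount of 0.1 RPM, or 8.54-fold (permutation test with 100000 shuffles, two-sided, p = 1e-05, the smallest it can give, adjusted p = 4.5e-05 over 9 protocol tests).

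7SL fragments were at 685, 1759 and 3390 RPM in PANDORA-seq and at 72.9, 282 and 1212 RPM in traditional-seq. The log2 difference was 2.67, or 6.37-fold (same permutation test, p = 1e-05, adjusted p = 4.5e-05). Per 100 nt of RNA the medians were 544 RPM for 7SK and 586 RPM for 7SL in PANDORA-seq, against 57.2 and 94.1 RPM in traditional-seq. With the reads that match the small RNA annotation as the denominator, the log2 differences were 5.24 for 7SK and 4.82 for 7SL. With the 14 shared file codes as pairs, the log2 differences were 2.93 for 7SK and 2.67 for 7SL (exact sign-flip test, p = 0.000122 for each, the smallest it can give). Protocol and sequencing depth cannot be told apart in these differences.

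The ratio of 7SK to 7SL reads did not separate the protocols. Its median was 1.05 over PANDORA-seq and 0.811 over traditional-seq libraries, a log2 difference of 0.42 (permutation test, two-sided, p = 0.259). That direction turned when sequences shared with other genes were left out, to -0.81 (permutation p = 0.0433, unadjusted). This setting kept 36.7% of PANDORA-seq and 30.8% of traditional-seq 7SK reads, but only 1.84% and 0.559% of 7SL reads. The ratio then rests on few 7SL reads, kept unequally by the protocols, and no direction is drawn from it.

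Many fragments also match other annotated genes, sought here among all GENCODE vM21 transcripts. Only 36.7% of PANDORA-seq and 30.8% of traditional-seq 7SK reads matched no other gene. For example, 63.2% of all 7SK reads also matched Gm24447 exactly. For 7SL the unshared part was 1.84% and 0.559%, and Rn7s6, a 7SL gene of 291 bases that shares a run of 173 bases with Rn7s1, matched 85.3% of the reads. With Rn7s6 and the genes nested in Rn7s1 and Rn7s2 allowed, it was 56.4% and 25.5%. The counts are therefore of the RNA families, and which gene copy a read came from is uncertain.

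Reads covered the 2 RNAs unevenly. In 7SK, PANDORA-seq coverage peaked at position 252 with a mean of 738 RPM and was at least 50% of that over positions 49 to 75, 201 to 224 and 239 to 276. Traditional-seq peaked at the same position with 81.1 RPM and reached 50% of it over positions 15 to 33, 62 to 80, 214 to 223 and 239 to 265. The stretch from 15 to 33 reached this level in traditional-seq only. Positions 101 to 150 held a median of only 1.49% and 2.22% of PANDORA-seq and traditional-seq reads, by read midpoint.

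7SL reads came mostly from 1 region. Positions 51 to 100 held a median of 78.6% of PANDORA-seq reads (64.6 to 89.1%) and 68.5% of traditional-seq reads (56.8 to 80.9%), by read midpoint. Coverage peaked at position 81 with 1485 RPM in PANDORA-seq and at position 99 with 304.5 RPM in traditional-seq. The next bin, positions 101 to 150, held a median of 3.33% and 15.3%.

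**Figure D2:**
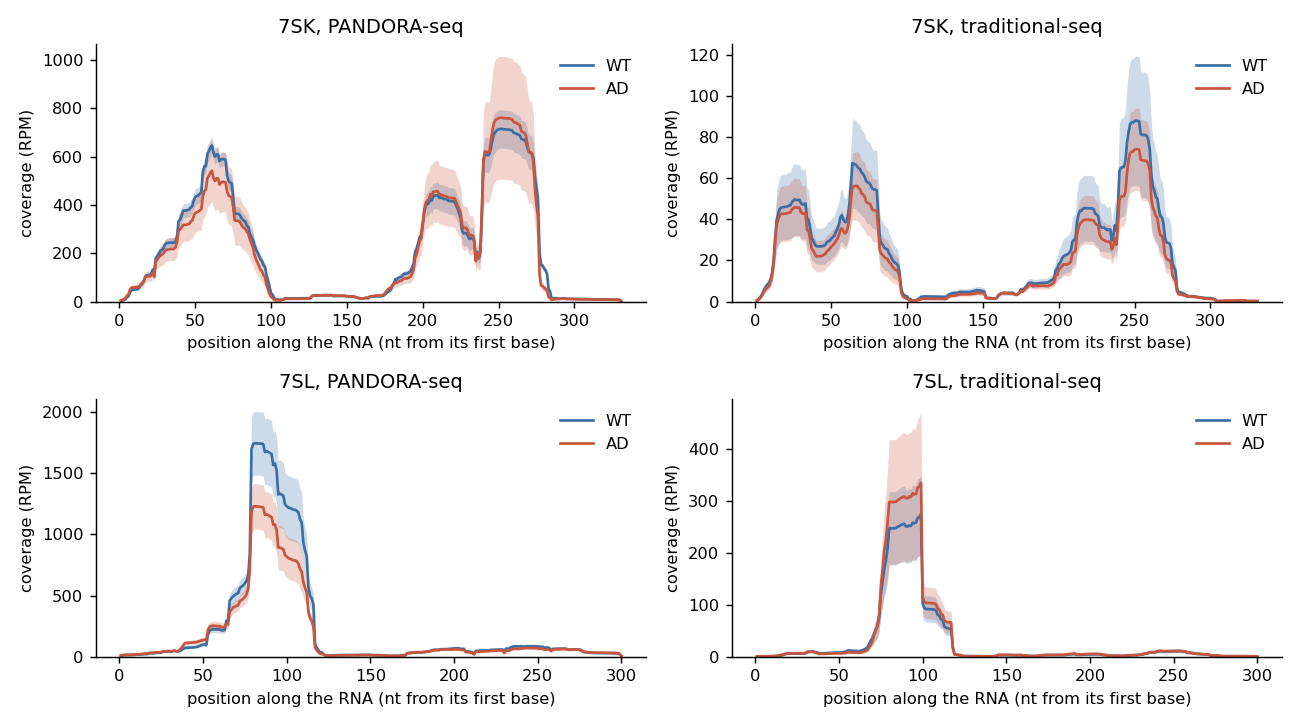
Mean coverage in RPM along 7SK and 7SL in WT and AD libraries of each protocol, against the position in nt, with bands of SEM. PANDORA-seq coverage of 7SK peaks at position 252 and that of 7SL at position 81, and traditional-seq coverage of 7SL peaks at position 99.

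The reads were spread over many 7SK sequences and few 7SL sequences. In PANDORA-seq, 145 sequences made up 50% of the mean 7SK level and 23 sequences 50% of the 7SL level. In traditional-seq the counts were 134 and 12. The single most abundant sequence carried 3.92% of 7SK and 8.40% of 7SL in PANDORA-seq, and 1.74% and 9.67% in traditional-seq.

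The share of 7SL fragments with a given end separated the protocols. The share of 7SL reads with position 99 as their last base was 0.492, 0.770 and 1.24% (lowest, median and highest) in PANDORA-seq against 21.4, 41.999 and 65.9% in traditional-seq. In RPM this end was at 7.26 to 26.3 in PANDORA-seq and 26.2 to 799 in traditional-seq, so that it was the more frequent end in traditional-seq by level as well as by share. The 7SL-80 (20 nt) fragment, the most abundant of these by its median in traditional-seq, was at 5.55, 28.0 and 114 RPM there, and at 0, 0.0733 and 0.142 RPM in PANDORA-seq.

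At a further pair of adjacent positions of 7SL, the protocols favoured different last bases. Whether the reads with these ends share their first bases was not tested. Position 117 was the last base of 0.831, 1.38 and 3.19% of PANDORA-seq reads and of 6.10, 10.8 and 17.9% of traditional-seq reads. The base just before it, where the 7SL-79 (38 nt) fragment stops, was the last base of 5.89, 9.81 and 21.1% of PANDORA-seq reads and of 0, 0.0841 and 0.217% of traditional-seq reads. By share, no library of either protocol entered the range of the other at either position. By level, the end at 117 overlapped, at 6.63, 24.6 and 58.9 RPM in PANDORA-seq and 4.45, 38.6 and 133.5 RPM in traditional-seq.

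The first bases of 7SL reads were closer between the protocols. Reads beginning at positions 74 to 80 made up 25.3, 46.6 and 76.0% in PANDORA-seq and 42.01, 53.0 and 63.1% with traditional-seq, and these ranges overlapped. Within that window PANDORA-seq reads favoured position 79, with a share of 8.63, 26.4 and 66.3%, against 5.54, 6.46 and 8.88% in traditional-seq. Starts at position 66 were 2.22, 7.90 and 13.1% in PANDORA-seq and 0, 0.450 and 1.25% in traditional-seq, and the ranges did not overlap.

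The share of position-79 starts varied widely among PANDORA-seq libraries. It accounted for 66.3% of 7SL reads in WT replicate 7 and for 8.63% in AD replicate 6. The 7SL-79 (38 nt) fragment ranged from 23.8 to 453 RPM with a median of 80.3. The 7SL-79 (34 nt) fragment, which ends 4 bases earlier, ranged from 12.8 to 450 RPM, and the 7SL-79 (31 nt) fragment from 4.38 to 422 RPM.

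7SK ends showed the same kind of contrast on a smaller scale. Position 276 was the last base of 6.19, 10.6 and 15.5% of PANDORA-seq reads and of 0.0855, 0.576 and 0.965% of traditional-seq reads. Position 260 was the last base of 0.0358, 0.0833 and 0.138% and of 1.62, 4.94 and 8.92%. By share, the 2 ends changed places between the protocols, with no overlap of libraries. By level, the end at 260 overlapped slightly, at 0.346 to 4.90 RPM in PANDORA-seq and 3.13 to 26.98 RPM in traditional-seq.

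Starts at positions 239 and 240 together made up 12.4, 17.2 and 22.7% of 7SK reads in PANDORA-seq and 5.29, 8.54 and 11.5% in traditional-seq. The 7SK-240 (37 nt) fragment joins this start to the PANDORA-seq end and was at 23.3, 63.0 and 317.5 RPM in PANDORA-seq, against 0, 0.0703 and 1.52 RPM in traditional-seq. Starts at positions 63 and 64 went the other way by share, with 1.43, 1.82 and 2.32% in PANDORA-seq and 5.01, 8.22 and 14.9% in traditional-seq, but not by level, at 11.3, 33.9 and 125.9 RPM against 8.75, 14.3 and 84.4 RPM. The 7SK-63 (18 nt) fragment was at 0.0369, 0.175 and 0.693 RPM in PANDORA-seq and at 0.983, 2.51 and 15.1 RPM in traditional-seq. These end positions were singled out after their values were seen and carry no test.

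**Figure D3:**
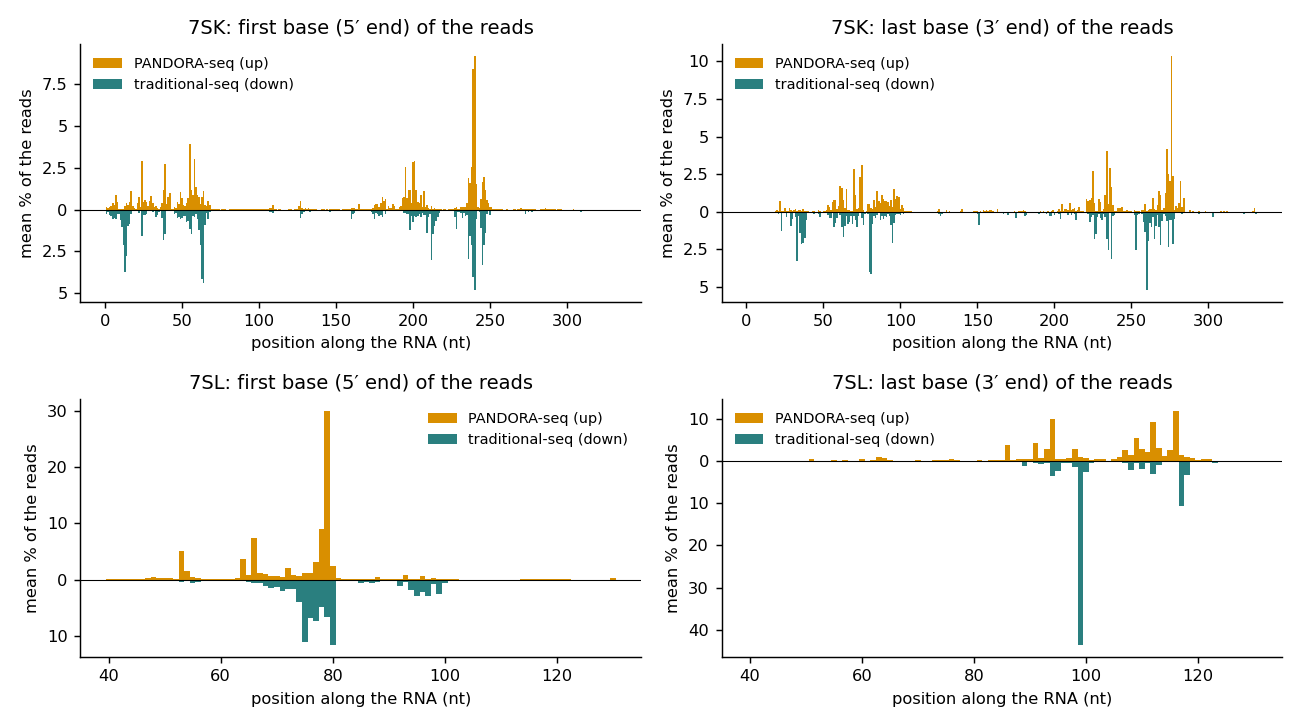
Share of reads, in percent, whose first base (left) or last base (right) falls at each position of 7SK (top) and of 7SL from position 40 to 130 (bottom), as means over libraries, with PANDORA-seq drawn upward and traditional-seq downward. The 7SL end at position 99 and the 7SK end at position 260 are tall on the traditional-seq side, and the 7SK end at position 276 and the 7SL start at position 79 on the PANDORA-seq side.

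Few reads touched the ends of the full RNAs. Reads that began within the first 3 bases of 7SK (5′ class) had a median share of 0.347% of PANDORA-seq and 0.668% of traditional-seq 7SK reads, a difference in means of -0.33 percentage points (permutation test, two-sided, p = 0.00019, adjusted p = 0.000427 over 9 tests). For 7SL the 5′ class was higher in PANDORA-seq, at 1.01% against 0.204%, a difference of 0.53 points (permutation p = 0.00403, adjusted p = 0.00518). The 7SK difference was no longer past the threshold when only reads beginning at the first base itself were counted (-0.08 points, permutation p = 0.122).

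Reads that ended within the last 6 bases (3′ class) had a median share of 1.80% of 7SL reads with PANDORA-seq and 0.329% with traditional-seq, a difference of 1.28 points (permutation p = 5e-05, adjusted p = 0.00015). With only the very last base counted it was 0.14 points (permutation p = 0.270). For 7SK the 3′ class was 0.371% and 0.0642%, a difference of 0.20 points (permutation p = 0.00204, adjusted p = 0.00306), and the direction turned to -0.13 points with the last base alone (permutation p = 0.00011). All other reads were interior and had medians of 97.2% and 99.5% for 7SL in PANDORA-seq and traditional-seq, a difference of -1.81 points (permutation p = 0.00032, adjusted p = 0.000576).

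PANDORA-seq fragments were longer. The median 7SK read was 33 to 37 nt in PANDORA-seq libraries and 20 to 28 nt in traditional-seq libraries, and the ranges did not overlap. The median 7SL read was 31 to 35 nt and 21 to 25 nt. In PANDORA-seq WT libraries 7SK reads were most frequent at 37 nt, with a mean of 202.96 ± 23.2 RPM (SEM, n = 8). Reads of 7SL were most frequent at 38 nt, with 279 ± 66.9 RPM (SEM, n = 8), and at 34 nt, with 277 ± 51.7 RPM.

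**Figure D4:**
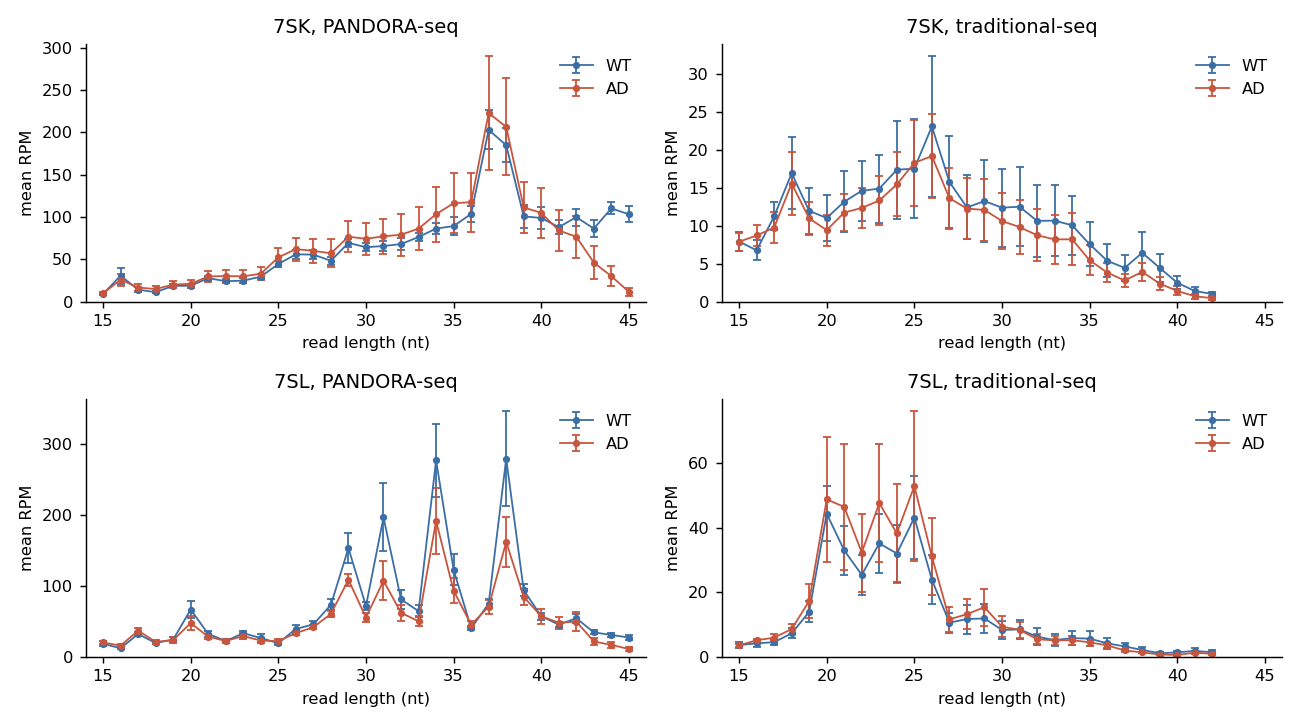
Mean level in RPM of 7SK and 7SL reads at each length in nt, for WT and AD in each protocol, with bars of SEM. 7SK peaks at 37 to 38 nt and 7SL at 29, 31, 34 and 38 nt in PANDORA-seq, and at 43, 44 and 45 nt the AD means of both RNAs in PANDORA-seq lie below the WT means, as they also do at some shorter lengths, for example 7SL at 38 nt (162 against 279 RPM).

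The second comparison, AD against WT, asked whether the fragments differ in the cortex of the amyloid model. Total 7SK fragments in PANDORA-seq were at 1636, 2026 and 2879 RPM (lowest, median and highest) over 8 WT libraries and at 792, 1612 and 5939 RPM over 8 AD libraries. The groups overlapped and the log2 difference was -0.25 (exact permutation test over 12870 splits, two-sided, p = 0.469, adjusted p = 0.657 over 21 genotype tests). AD replicate 1, at 5939 RPM, stood apart from the next AD library at 2193 RPM. Without it the log2 difference was -0.51 (exact permutation p = 0.0314, unadjusted).

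AD replicate 1 also had 191.3 RPM of the muscle miRNA Mir206, against 0.655 to 77.0 RPM in the other AD libraries and 0.470 to 4.16 RPM in WT. The other muscle hairpins of the list, Mir133a-1 and Mir1a-1, were low in that library, at 0.198 RPM (0.259 to 1.53 RPM in the other 15) and 0.841 RPM (0.603 to 3.53 RPM). Of the marker lists, edgeR called Mir206 (log2 difference 4.58, adjusted p = 0.00511) and Mir124a (0.92, edgeR adjusted p = 0.0384 for Mir124a-1) higher in AD in PANDORA-seq. The 3 Mir124a hairpins carry nearly the same reads and count as 1 observation. The other neuronal miRNAs were not called, at 0.34 for Mir9-1 and -0.16 for Mir128-1 (edgeR adjusted p = 0.623 and 0.793), and 0 of 16 marker hairpins were called lower. The AD median of Mir206 in PANDORA-seq was 2.14 RPM, within the WT range, so its difference did not run through all AD libraries. In traditional-seq Mir206 (-0.79) and Mir124a-1 (-0.27) had the other sign and were not called (edgeR adjusted p = 0.999 for each). The part of the marker miRNAs in the 7SK and 7SL values was not tested. No traditional-seq library carries the file code of AD replicate 1. In a library of whole tissue, fewer cells of a type and less RNA per cell cannot be told apart.

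Total 7SL fragments in PANDORA-seq were at 1331, 1859 and 3390 RPM in WT and at 685, 1687 and 2589 RPM in AD. The log2 difference was -0.41 (exact permutation test, p = 0.148, adjusted p = 0.451). The ratio of 7SK to 7SL reads had a median of 1.10 in WT and 0.955 in AD, with a log2 difference of 0.15 (exact permutation test, p = 0.723, adjusted p = 0.843).

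In traditional-seq 7SK was at 80.7, 193 and 814 RPM in 7 WT libraries and at 107, 186 and 657 RPM in 7 AD libraries, with a log2 difference of -0.05 (exact permutation test over 3432 splits, p = 0.926, adjusted p = 0.972). 7SL was at 76.9, 213 and 726 RPM and at 72.9, 352 and 1212 RPM, with a log2 difference of 0.01 (exact permutation test, p = 0.994). The genotype effect did not differ detectably between the protocols, with differences of -0.20 for 7SK (permutation test with 100000 shuffles, p = 0.741) and -0.41 for 7SL (p = 0.581 by the same permutation test).

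The longest 7SK fragments fell in AD. At 43 to 45 nt, 7SK was at 213, 299.7 and 392 RPM in WT and at 8.34, 43.9 and 295 RPM in AD, and 7 of 8 AD libraries were below every WT library. The log2 difference was -2.62, or 6.14-fold lower (exact permutation test, p = 0.00109, adjusted p = 0.0228 over 21 tests). Like the other tests, this one was chosen with earlier results of these data known, which the adjustment does not cover. Of its own 7SK reads, a WT library had 12.04 to 17.1% at these lengths and an AD library 1.05 to 8.09%. The share of all reads at these lengths was alike, at 11.2 to 21.5% in WT and 2.13 to 10.7% in AD, also without overlap. The AD libraries with the most were replicate 1, with 295 RPM, and replicate 6, with 177 RPM, and all reads of 43 to 45 nt were 6.90% and 10.7% of these libraries.

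The difference grew with each added base. It was -0.74 ± 0.43 (log2, SE, n = 8 per genotype) at 42 nt, -1.65 ± 0.61 at 43 nt, -2.89 ± 0.70 at 44 nt and -4.08 ± 0.65 at 45 nt. From 15 to 40 nt 7SK was at 1266, 1532 and 2292 RPM in WT and at 737, 1419 and 5160 RPM in AD, with a log2 difference of -0.04 (exact permutation test, p = 0.906, adjusted p = 0.972).

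The library as a whole differed in the same direction at these lengths. All reads of 43 to 45 nt, whatever their origin, differed by -1.82 on the log2 scale, and by -1.21, -2.19 and -2.03 at 43, 44 and 45 nt. When each library was scaled by all its reads of the same length, the 7SK difference was -0.91 (exact permutation test, p = 0.0333, unadjusted). The 7SK value at 43 to 45 nt therefore included a library-wide difference.

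7SL fragments of 43 to 45 nt were at 66.1, 83.6 and 138 RPM in WT and at 16.7, 40.8 and 94.1 RPM in AD, and 6 of 8 AD libraries were below every WT library. The log2 difference was -1.12 (exact permutation test, p = 0.00793), which did not pass after adjustment over 21 tests (p = 0.0555 in the exact permutation test). By length it was -0.90 ± 0.35 at 43 nt, -1.09 ± 0.35 at 44 nt and -1.50 ± 0.40 at 45 nt (log2, SE). Scaled by all reads of the same length it turned to 0.66 (exact permutation test, p = 0.00606), since all reads of these lengths differed by more than 7SL did. From 15 to 40 nt the log2 difference of 7SL was -0.39 (exact permutation test, p = 0.180, adjusted p = 0.451).

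**Figure D5:**
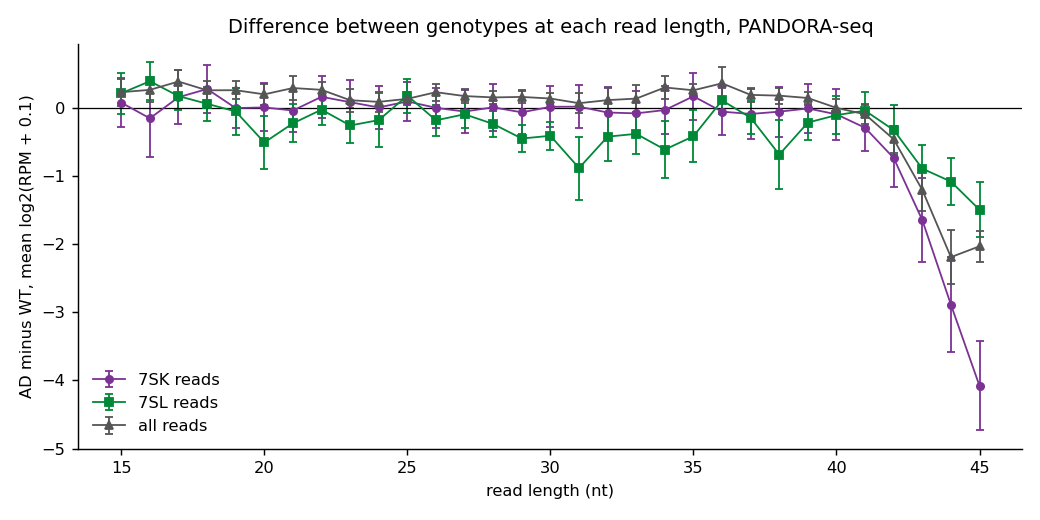
Difference between AD and WT in mean log2(RPM + 0.1) at each read length in PANDORA-seq, for 7SK reads, 7SL reads and all reads, with bars of the SE of the difference. 7SK reaches -4.08 and 7SL -1.50 at 45 nt, where all reads are at -2.03.

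Single sequences were tested with edgeR on all 188718 sequences that passed the filter on low counts in PANDORA-seq, of which 1.92% were called (adjusted p below 0.05 and more than 2-fold), 1.88% as lower and 0.0403% as higher in AD. Among the 7SK sequences of PANDORA-seq 1513 of 6652 passed the filter, and 23 of them were called (1.52%), all lower in AD. Without AD replicate 1, 68 were called (4.42%, against 2.82% of all sequences), and with each library scaled at each length, 6 were. Among its 7SL sequences 1018 of 6033 passed, with 7 called lower and 1 higher. Scaled at each length the direction turned, with 0 lower and 13 higher, as it did over all sequences (1050 lower and 1636 higher). In fits without 1 library, 0 to 5 7SL sequences were called higher, and 0 in 9 of 16 fits. Of the sequences of 43 to 45 nt alone, 23 of 152 for 7SK and 7 of 98 for 7SL were called lower, against 19.7% of all 17537 sequences of these lengths. At 41 and 42 nt, 0 of 122 and 0 of 94 were called lower, against 0.359% of all sequences. From 15 to 40 nt, 0 of 1239 and 0 of 826 were called lower, against 0.0271% of all sequences. With all libraries, the called shares of both RNAs at 43 to 45 nt were thus no higher than that of all sequences of these lengths. Calls were not split by length in the fits without 1 library.

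The 23 called 7SK sequences were all 44 or 45 nt long, lay between positions 17 and 288, and had log2 differences from -4.93 to -2.89. The 7SK-238 (45 nt) fragment, picked for the smallest adjusted p, was at 5.34, 6.39 and 8.48 RPM in WT and at 0, 0.151 and 0.814 RPM in AD. A gap between the groups follows from this choice, so the values of the fragment are no separate support. Its log2 difference was -4.93 ± 0.62 (SE; edgeR adjusted p = 0.000191). It spans the whole of the shorter and more abundant 7SK-240 (37 nt) fragment, which was at 25.96, 65.7 and 135 RPM in WT and at 23.3, 61.0 and 317.5 RPM in AD. For that shorter fragment the log2 difference was 0.35 ± 0.54 (edgeR adjusted p = 0.89), and it ran from -0.42 (without AD replicate 1) to 0.55 without 1 library.

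Among 7SL sequences, the 7 lower in AD were all 45 nt long, with log2 differences from -3.45 to -2.50. The 7SL-77 (45 nt) fragment, picked in the same way, was at 0.246, 0.681 and 1.21 RPM in WT and at 0, 0.0294 and 0.316 RPM in AD. Its log2 difference was -3.31 ± 0.65 (edgeR adjusted p = 0.00756). After scaling by all reads of each length its difference was -1.56 (edgeR adjusted p = 0.27). The abundant 7SL-79 (38 nt) fragment had a log2 difference of -1.27 ± 0.64 (edgeR adjusted p = 0.52).

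In traditional-seq 0 of 34 7SK and 0 of 47 7SL sequences were called by edgeR or by DESeq2, beside 0% of all 24841 tested. At an unadjusted edgeR p under 0.05 there were 0 of these 7SK and 7SL sequences and 360 of all sequences. All of these 7SK and 7SL sequences were 15 to 40 nt long, and traditional-seq held no read above 42 nt. The sequences called lower in PANDORA-seq were 44 or 45 nt long, so traditional-seq could not test that difference.

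The share of 7SK reads from the very 5′ end was higher in AD in PANDORA-seq. It was 0.247, 0.312 and 0.390% in WT and 0.279, 0.473 and 0.711% in AD, with 6 of 8 AD libraries above every WT library. These are shares of the 7SK total, whose median was 2026 RPM in WT and 1612 RPM in AD. The level of the 5′ reads in RPM was not tested, so a higher share need not be a higher level. The difference in mean share was 0.17 percentage points (exact permutation test, two-sided, p = 0.00388, adjusted p = 0.0408 over 21 tests). It was between 0.13 and 0.20 points without any single library, 0.14 points with reads of 15 to 40 nt only (exact permutation p = 0.0312, unadjusted) and 0.095 points with only the first base counted (exact permutation p = 0.000932, unadjusted). In traditional-seq the share was 0.342, 0.690 and 1.45% in WT and 0.340, 0.647 and 1.01% in AD, a difference in means of -0.15 points (exact permutation test, p = 0.391, adjusted p = 0.624), and whether the protocols differ in this was not tested. The other end classes of 7SK and 7SL had adjusted p from 0.451 to 0.843 between genotypes (exact permutation tests).

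As whole genes, none of the 3 members was called in PANDORA-seq, where edgeR called 7.24% of 2403 tested small RNA genes and listed mRNAs, 6.49% as lower and 0.749% as higher in AD. Rn7sk had a log2 difference of 0.12 ± 0.34 (edgeR adjusted p = 0.931), opposite in sign to the -0.25 from mean log levels, and it turned to -0.50 without AD replicate 1 (edgeR adjusted p = 0.352). Rn7s1 and Rn7s2 had -0.08 ± 0.28 each (edgeR adjusted p = 0.941). In traditional-seq edgeR called 0 of 1751 genes, with 9 at an unadjusted p under 0.05 (DESeq2 called 0 as well).

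Fragments of mRNAs for the partners of 7SK and 7SL were sparse. Of 7 mRNAs of the 7SK complex and P-TEFb, 0 of 7 tested were called in PANDORA-seq (edgeR, median log2 difference -0.15), and none exceeded 24.996 RPM in any library. Ccnt1, which encodes cyclin T1, was at 8.59, 15.0 and 21.9 RPM in WT and at 5.17, 13.9 and 24.996 RPM in AD. Hexim1, whose product inhibits P-TEFb when bound to 7SK, was at 1.37, 3.04 and 5.49 RPM in WT and at 1.85, 2.54 and 4.27 RPM in AD.

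Of 10 listed mRNAs of the signal recognition particle and its receptor 9 were matched by name (not Srpra), and 0 of 9 tested were called (edgeR, median log2 difference -0.29, range -0.51 to -0.14). The 3 Srp54 copies (a, b and c) had nearly the same values, and with Srp54a alone in their place the median was -0.24. Srp54a, which encodes the subunit that binds signal peptides, was at 5.13, 15.96 and 32.3 RPM in WT and at 4.70, 10.5 and 18.5 RPM in AD. All 2403 genes tested had a median log2 difference of 0.21, but most are small RNA genes and thus no background for mRNA fragments. The listed mRNAs of the 7SK complex and P-TEFb had a median of -0.15. In traditional-seq 0 of 3 and 0 of 6 tested mRNAs of these lists were called by edgeR.

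Of 9 other listed RNA polymerase III RNAs 7 were matched by name (not Rn4.5s and Rnu6atac), and 0 were called in either protocol (edgeR, medians of log2 differences 0.25 in PANDORA-seq and 0.06 in traditional-seq). Rny1, a Y RNA that binds the Ro protein, was at 10636, 14357 and 15972 RPM in WT and at 11478, 15555 and 28428 RPM in AD in PANDORA-seq. Bc1, a neuronal RNA that represses translation at synapses, was at 40.6, 79.7 and 109 RPM in WT and at 31.7, 105 and 167 RPM in AD. Rny1 was at 3013 to 19434 RPM in traditional-seq, and its ranges in the protocols overlapped, as did those of Rnu6. The other RNAs matched were higher in PANDORA-seq without overlap. Rny3 was at 2376 to 13805 RPM there and at 124 to 694 RPM in traditional-seq. In the same order, Bc1 was at 31.7 to 167 and 1.59 to 7.18 RPM. Rpph1 was at 15.3 to 50.7 and 0.316 to 5.26 RPM, and Rmrp at 11.4 to 37.2 and 1.34 to 5.70 RPM. Vaultrc5 was at 9.08 to 42.2 and 2.59 to 8.38 RPM. These protocol differences were not tested.

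Among 1654 other small RNA genes with a mean of at least 1 RPM, those whose log2 level followed 7SK most closely over the 16 PANDORA-seq libraries were Snord22 (Pearson r = 0.88), Snord15b (r = 0.86) and Gm23262 (r = 0.82), all snoRNA genes. Those closest to 7SL were Gm26146, an snRNA gene (r = 0.81), and the snoRNA genes Snord11 (r = 0.80) and Snord32a (r = 0.79). The median r over all these genes was 0.15 for 7SK and 0.18 for 7SL. All of these values share their library totals as denominators, and the correlations are descriptions without a test.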

How the data were processed

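The authors deposited, for each library, distinct read sequences with their read counts, made with SPORTS1.1 after adapter trimming and kept at 15 to 45 nt. The processing notes name the build mm39. The GENCODE vM21 transcripts used here are on GRCm38, and reads were matched to transcripts, not to a genome, so copies outside the annotation were not checked. Only whole-length exact sense matches counted. Levels are reads scaled to 1000000 reads per library (RPM). PANDORA-seq (16 libraries) and traditional-seq (14 libraries) were compared by permutation of log2(RPM + 0.1), 100000 shuffles across protocols and all splits between genotypes, with Benjamini-Hochberg adjustment in each family. Single sequences and genes were tested with the quasi-likelihood test of edgeR 4.0.16 (filterByExpr, at least 10 reads, TMM) in R 4.3.3, checked on simulated data, with DESeq2 1.42.0 as an alternative. Named sequences are the 3 most abundant per RNA and protocol and the called sequence with the smallest adjusted p in each direction, of which 1 and the full 7SL sequence are not reported here. Members, lists and tests were chosen with earlier results of these data known. No counting intervals were computed, since PCR reads are not independent molecules. Other settings tried were pseudocount, scale, denominator, mismatches, ambiguous sequences, filters, tools, a replicate block and leaving out each library.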

Additional observations from a re-analysis of the deposited data

Results flagged for a closer look

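In 6 measures 1 library lay further from its group than Dixon's limit allows, out of 44 groups tested, and chance alone marks about 1 in 20 groups. Total 7SK in PANDORA-seq was 5939 RPM in AD replicate 1, where the next AD library had 2193 RPM, and 7SK of 15 to 40 nt was 5160 RPM in the same library, where the next had 1898 RPM. Total 7SK in traditional-seq was 657 RPM in AD replicate 7, where the next AD library had 279 RPM.

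AD replicate 2 of traditional-seq stood apart in all 3 end classes of 7SL. Its 5′ class held 1.99% of 7SL reads (next 0.811%), its 3′ class 2.79% (next 0.892%) and its interior class 95.2% (nearest 98.3%). These 3 shares add to 100 in a library, so they are not independent.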

How the results depend on the processing

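The calls named here are by unadjusted p, and settings not named left each level, ratio and end class on its side of the threshold. Of these 32 results, 8 that passed no test changed sign under some setting, such as 7SK of 15 to 40 nt (-0.29 to 0.18), 7SK (-0.31 to 0.26) and 7SL (-0.34 to 0.33) between genotypes in traditional-seq, the ratio between genotypes (-0.064 to 0.35), the difference of the 7SK genotype effects (-0.51 to 0.061) and the 7SK 3′ class in PANDORA-seq (-0.10 to 0.017), and no direction is drawn from them. The 7SL total and 7SL of 15 to 40 nt passed in AD against WT with the reads of 15 to 40 nt as denominator (-0.61, exact permutation p = 0.0361, and -0.59, p = 0.0493 by the same exact test). Scaled at each length, 7SL of 43 to 45 nt reversed to 0.66. With ambiguous sequences left out, the ratio between protocols reversed to -0.81, on 1.84% of PANDORA-seq and 0.559% of traditional-seq 7SL reads.

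Between protocols, with the first and last position only, the 7SK 5′ class gave -0.079 points, the 7SK 3′ class -0.13, the 7SK interior class 0.21, the 7SL 3′ class 0.14 and the 7SL interior class -0.47. Of these, the 7SK interior class newly passed (permutation p = 0.00513), and the 7SK 5′, 7SL 3′ and 7SL interior classes no longer did. With reads of 15 to 40 nt, the 7SK 3′ class gave -0.044 (permutation p = 0.319) and the 7SK interior class 0.31 (permutation p = 0.00805). Between genotypes in PANDORA-seq, the 7SK interior class passed under these settings, at -0.10 (exact permutation p = 0.00124) and -0.15 (exact permutation p = 0.0402). The 7SL 3′ class passed with reads of 15 to 40 nt, at 0.43 (exact permutation p = 0.0465).

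Called 7SK sequences, 23 in the report, numbered 45 (2.97% of those tested, against 3.55% of all sequences) with the likelihood ratio test, 53 (3.50%, 3.94%) with DESeq2, 43 (2.84%, 4.86%) with matched sequences only, 81 (80 lower, 1 higher, 3.47%, 5.42%) of these with a loose filter, 36 (4.29%, 5.35%) with a stricter filter and 6 (0.397%, 1.42%) scaled at each length. Called 7SL sequences, 8 in the report, numbered 25 (15 lower, 10 higher, 2.46%), 31 (20 and 11, 3.05%), 17 (13 and 4, 1.67%), 35 (30 and 5, 2.003%), 19 (13 and 6, 3.09%) and 13 (0 and 13, 1.28%) in the same order. Scaled at each length, all sequences also turned to more higher (1636) than lower (1050). Called genes, 174 in the report (7.24% of 2403 tested), numbered 295 with DESeq2 (12.3% of 2403). With sequences of 1 gene only they numbered 30 (3.44% of 873 tested). The cause was not tested.

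Without 1 library, the 7SK total ranged from -0.51 (without AD replicate 1) to -0.090, 7SK of 43 to 45 nt from -2.996 to -2.26, 7SL of 43 to 45 nt from -1.29 to -0.94 and the 7SL 3′ class between genotypes from 0.44 to 0.69 (without AD replicate 5). Called 7SK sequences ranged from 16 to 68 (68 without AD replicate 1, 4.42% against 2.82% of all sequences, 42 without 5, 2.67% against 4.42%, and 40 without 6, 2.59% against 3.52%). Called 7SL sequences ranged from 3 (without WT replicate 6, 0.284% against 1.31% of all sequences) to 18 (without AD replicate 5, 1.68% against 4.42%). There were 5 without WT replicate 1, 2, 4 or 8 (0.468 to 0.479%, against 1.42 to 2.45% of all sequences). Without AD replicate 1 there were 17 (1.60%, against 2.82%), and without AD replicate 6 there were 16 (1.55%, against 3.52%).

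The replicate numbers did not pair the libraries. Correlations of same-numbered deviations ran from -0.46 to 0.54 in PANDORA-seq. With a replicate block, 39 7SK and 18 7SL sequences (14 lower, 4 higher) were called, 2.58% and 1.77% of those tested against 2.67% of all sequences. Pairing by number cannot move the mean differences of 7SK and 7SL at 43 to 45 nt, -2.62 and -1.12. Exact sign-flip tests of these gave p = 0.0156 and p = 0.0234. With the 14 file codes as pairs, the end classes and ratio between protocols kept their direction and side (exact sign-flip tests). Settings for matches with Rn7s6 or nested genes allowed, and the pairs for end classes and ratio, were chosen after seeing the data.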
